A study of Rattus norvegicus with 9 samples.

Results

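The endoplasmic reticulum (ER) chaperone and unfolded protein response genes described here are Hspa5, Hsp90b1, Pdia4, Calr, Dnajb9, Xbp1, Herpud1, Sdf2l1, Edem1 and Creld2. They were picked by symbol, and each symbol matched 1 gene, so they are 10 of the 22050 genes in the deposited table. All 10 had enough counts to be tested, among 11473 tested genes. RNA-seq was done on NRK-49F cells, an established fibroblast line from rat kidney that the labels call renal fibroblast of wt genotype. One group of 3 libraries came from cells given TGF-β1 and the compound YEXX-2A, another group of 3 from cells given TGF-β1 and the compound YWCH-4A, and the last group of 3 from cells given TGF-β1 and vehicle. TGF-β1, a cytokine that turns fibroblasts towards matrix production, was thus present in all 9 libraries, with an incubation of 48 h per the labels, and cells without it were not analysed here. The compounds are known here by code name, without dose or time of addition. The labels number 3 biological replicates a group and do not say whether these were separate cultures on separate days, and a p-value here reflects only how these 3 libraries a group scatter, which may be technical.

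Secreted and membrane proteins, collagens among them, fold in the ER with the help of chaperones such as BiP, the product of Hspa5. When unfolded proteins build up, 3 sensors in the ER membrane respond. IRE1 (gene Ern1) splices the Xbp1 mRNA so that it encodes an active transcription factor, ATF6 is cut to release another, and PERK (gene Eif2ak3) slows translation and favours ATF4. XBP1 and ATF6 switch on chaperones and the machinery of ER-associated degradation (ERAD), which takes misfolded proteins back to the cytosol. Fibroblasts that make much matrix carry a heavy load of such folding work. Counts per gene, as used here, do not separate spliced from unspliced Xbp1 mRNA.

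ATF6 and XBP1 bind short promoter elements, and these were looked up because they are what many of these genes are known to share. RefSeq promoter sequences (build GRCr8, 250 bases before the start of each gene and 50 after it) matched all 10 genes by symbol. The ER stress response element (ERSE, searched as CCAAT, any 9 bases, then CCACG, on either strand) stood in 5 of the 10 promoters and in 0.0657% of all 33469. The related ERSE-II (ATTGG, any base, then CCACG, on either strand) stood in 1 of the 10, Herpud1, and in 0.0508% of all. Herpud1 also held the composite element that ATF4 binds (searched as TGATGNAA on either strand, 3.98% of all promoters), the only match among the 10. A direct XBP1 site (TGACGTGG, 0.595% of all) was found in none. The stretches that hold the matches follow, with matches in capitals and the rest in lower case. A match describes the sequence and is not a site or a cause. No ERSE-II match overlapped an ERSE match. In Herpud1, the first capitals are the ATF4 composite element (read on the other strand) and the second are ERSE-II.
Herpud1: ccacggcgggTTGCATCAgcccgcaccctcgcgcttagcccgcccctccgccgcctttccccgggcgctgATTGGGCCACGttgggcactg
Hspa5: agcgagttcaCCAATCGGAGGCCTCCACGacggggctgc
Hsp90b1: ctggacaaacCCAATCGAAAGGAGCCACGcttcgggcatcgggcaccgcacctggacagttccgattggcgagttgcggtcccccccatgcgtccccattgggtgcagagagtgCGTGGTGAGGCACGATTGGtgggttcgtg
Calr: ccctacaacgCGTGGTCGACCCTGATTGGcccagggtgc
Creld2: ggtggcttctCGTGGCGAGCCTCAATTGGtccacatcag
Xbp1: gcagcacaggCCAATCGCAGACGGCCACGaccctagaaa

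In build GRCr8 these stretches lie at chr19:10614811-10614901 (minus strand) for Herpud1, chr3:38452963-38453001 (plus) for Hspa5, chr7:23012337-23012479 (minus) for Hsp90b1, chr19:40213125-40213163 (plus) for Calr, chr7:121789229-121789267 (plus) for Creld2 and chr14:84604548-84604586 (plus) for Xbp1. The ERSE-II of Herpud1 begins 124 bases before the start used in the RefSeq promoter table, and its ATF4 composite element 184 bases before it. That start lies inside the RefSeq span of Herpud1, as it does for Edem1, Creld2 and Dnajb9. The ERSE of Hspa5 begins 43 bases before the start and that of Xbp1 65 bases before. Hsp90b1 holds a pair of ERSE copies in opposite orientation, beginning 176 and 72 bases before the start. Pdia4 had no exact ERSE, but it and Herpud1 each had a copy with 1 of the 10 fixed letters changed, and 1.41% of all promoters had an ERSE with at most 1 change. Sdf2l1, Dnajb9 and Edem1 had no match to any of these in the window.

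Library totals ran from 13675868 to 21923715 rounded counts. The median count of the 10 genes was between 1468 and 2343 per library, so counting error is small for all but Dnajb9, which had 75 to 332 counts. Vehicle replicate 2 stood apart. Scatter between replicates was taken as a biological coefficient of variation, 1 value common to all tested genes of a group. It came to 7.34% with YEXX-2A, 3.67% with YWCH-4A and 16.7% with vehicle, or 4.69% with vehicle without that replicate. As a log2 CPM difference from the mean of the other vehicle libraries, Dnajb9 was at -0.81 in it and Hsp90b1 at -0.66, while Herpud1 was at 0.37, Sdf2l1 at 0.35 and Calr at 0.29. Results against vehicle are therefore given with and without it where it matters. Of 10 fibroblast markers, 7 had enough counts to be tested, and Thy1, Dcn and Fap did not. Their summed level was 8518 to 9059 FPKM with YEXX-2A, 3628 to 3854 with YWCH-4A and 10181 to 11572 with vehicle. That sum is mostly the collagen genes Col1a1 and Col3a1 and Vim, and the members did not move alike. With YWCH-4A, Col1a1 was at a log2 fold change of -2.32, Col3a1 at -3.72, Vim at -1.10 and Lum at -0.40, while Pdgfra was at 0.69, Pdgfrb at 0.07 and S100a4 at 0.23. Of 10 kidney epithelial markers, Epcam, Krt18, Umod and Aqp2 were listed at 0 in every library, and the summed level of the list was 863 to 899 FPKM with YEXX-2A, 555 to 579 with YWCH-4A and 952 to 1147 with vehicle. Only Krt8, at a mean of 1452 CPM, and Pax8, at 0.45 CPM, were tested from that list. Summed endothelial markers were at 1.49 to 2.01 FPKM with YEXX-2A, 1.98 to 2.29 with YWCH-4A and 0.95 to 1.32 with vehicle. Of 8 leukocyte markers only Cd68 passed the count filter, and their sum was 33.3 to 36.6 FPKM with YEXX-2A, 56.5 to 63.3 with YWCH-4A and 37.1 to 45.6 with vehicle. The part of these markers in the results that follow was not tested. In bulk RNA, fewer cells of a type and less RNA per cell cannot be told apart.

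Per transcript length, the lectin chaperone gene Calr was the most abundant of the 10 in every group. It stood at 805 ± 18.2 FPKM with YEXX-2A, 1000.5 ± 18.4 FPKM with YWCH-4A and 836 ± 62.7 FPKM with vehicle (SD, n = 3 each). Pdia4, a protein disulfide isomerase, came next at 454 ± 17.5 FPKM with YEXX-2A, 524 ± 2.64 with YWCH-4A and 454 ± 21.9 with vehicle. Hspa5 followed at 381 ± 18.2 FPKM with YEXX-2A, 415 ± 4.4 with YWCH-4A and 319 ± 39.2 with vehicle. Hsp90b1, the ER member of the HSP90 family also called GRP94, was at 272 ± 30.8 FPKM with YEXX-2A, 244 ± 14.3 with YWCH-4A and 203 ± 57.8 with vehicle. Hspa5 and Hsp90b1 did not overlap within any group. Xbp1 lay between 65.2 and 90.8 FPKM over all libraries and Edem1 between 43.9 and 49.0 FPKM. Dnajb9 was the lowest, at 2.73 to 8.66 FPKM.

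The order of the remaining 3 genes differed with YWCH-4A. With YEXX-2A, Herpud1 was at 36.4 ± 1.57 FPKM, Creld2 at 27.7 ± 0.991 and Sdf2l1 at 24.5 ± 1.18. With vehicle the order was the same, with Herpud1 at 44.5 ± 5.01, Creld2 at 26.2 ± 0.996 and Sdf2l1 at 25.99 ± 3.57 FPKM, where the last pair overlapped. With YWCH-4A it was turned round, with Sdf2l1 at 41.7 ± 0.393, Creld2 at 33.4 ± 0.112 and Herpud1 at 27.3 ± 0.675 FPKM, and none of the 3 overlapped. FPKM values are the authors' and are on a different library scale from the CPM values used for the comparisons.

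**Figure D1:**
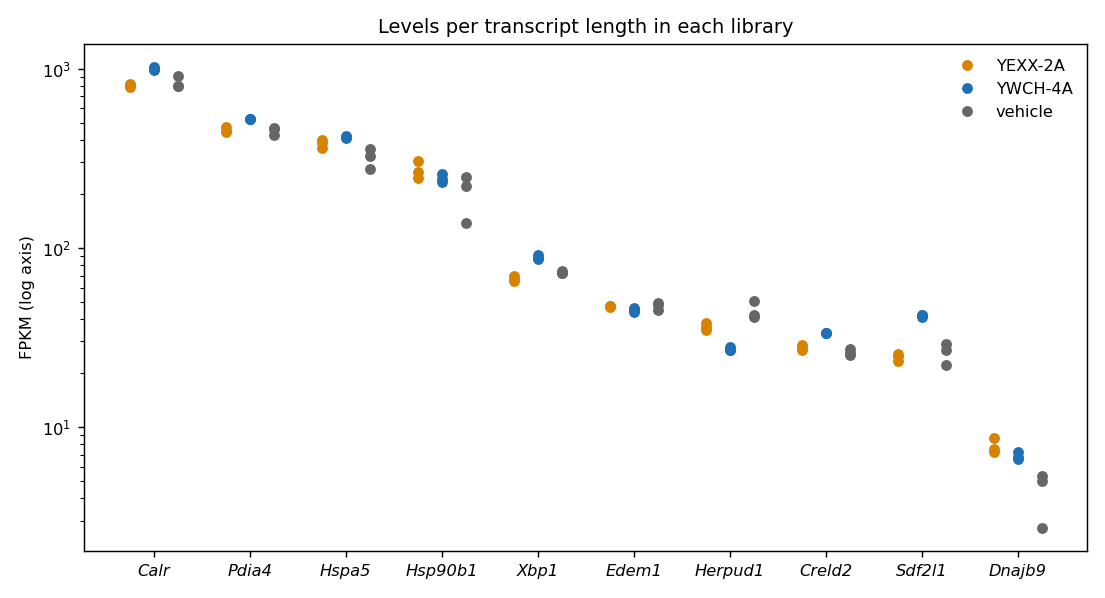
FPKM (log axis) of the 10 genes in each library, as points, for YEXX-2A, YWCH-4A and vehicle (3 libraries each). Calr was highest and Dnajb9 lowest in every group, and Herpud1 stood above Sdf2l1 with YEXX-2A and vehicle and under it with YWCH-4A.

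The first comparison asked which of these transcripts differed when TGF-β1-treated fibroblasts were given YEXX-2A. Of the 10 genes 1 rose, Dnajb9, and 2 fell, Herpud1 and Xbp1. A call means an adjusted p under 0.05 in the quasi-likelihood test of edgeR over all tested genes. Of all tested genes 17.6% were called higher and 18.5% lower, and 36.1% in either direction, so 3 of 10 is near the background. The 3 compound libraries lay above all vehicle libraries for 1 of the 10 genes and under them for 3, beside 25.3% and 26.3% of all genes. The main chaperones Hspa5, Hsp90b1, Calr and Pdia4 were not called. The median log2 fold change of the 10 genes was -0.09, beside 0.01 over all tested genes.

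YWCH-4A was set against vehicle in the same way. Sdf2l1 rose, and Herpud1 and Edem1 fell, again 1 and 2 of 10. Of all tested genes 15.7% were called higher, 14.9% lower and 30.6% in either direction, so these counts too are near the background. All YWCH-4A libraries lay above all vehicle libraries for 4 of the 10 genes and under them for 2, beside 24.9% and 21.0% of all genes. The median log2 fold change of the 10 genes was 0.10, beside 0.03 over all. On log2(FPKM + 1), which carries no TMM scaling, limma called 7 of the 10 genes higher and 1 lower. It called 4700 of the 11473 tested genes on that scale. Of those calls 78.1% were higher, against 51.2% of the calls here, which is a share of calls and not of genes. Both comparisons use the same vehicle libraries. Without vehicle replicate 2, 5 of the 10 were called higher and 2 lower with YWCH-4A, beside 20.3% and 19.1% of all genes, and the added calls were Hspa5, Calr, Xbp1 and Creld2. Without the same library the YEXX-2A counts were again 1 and 2.

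**Figure D2:**
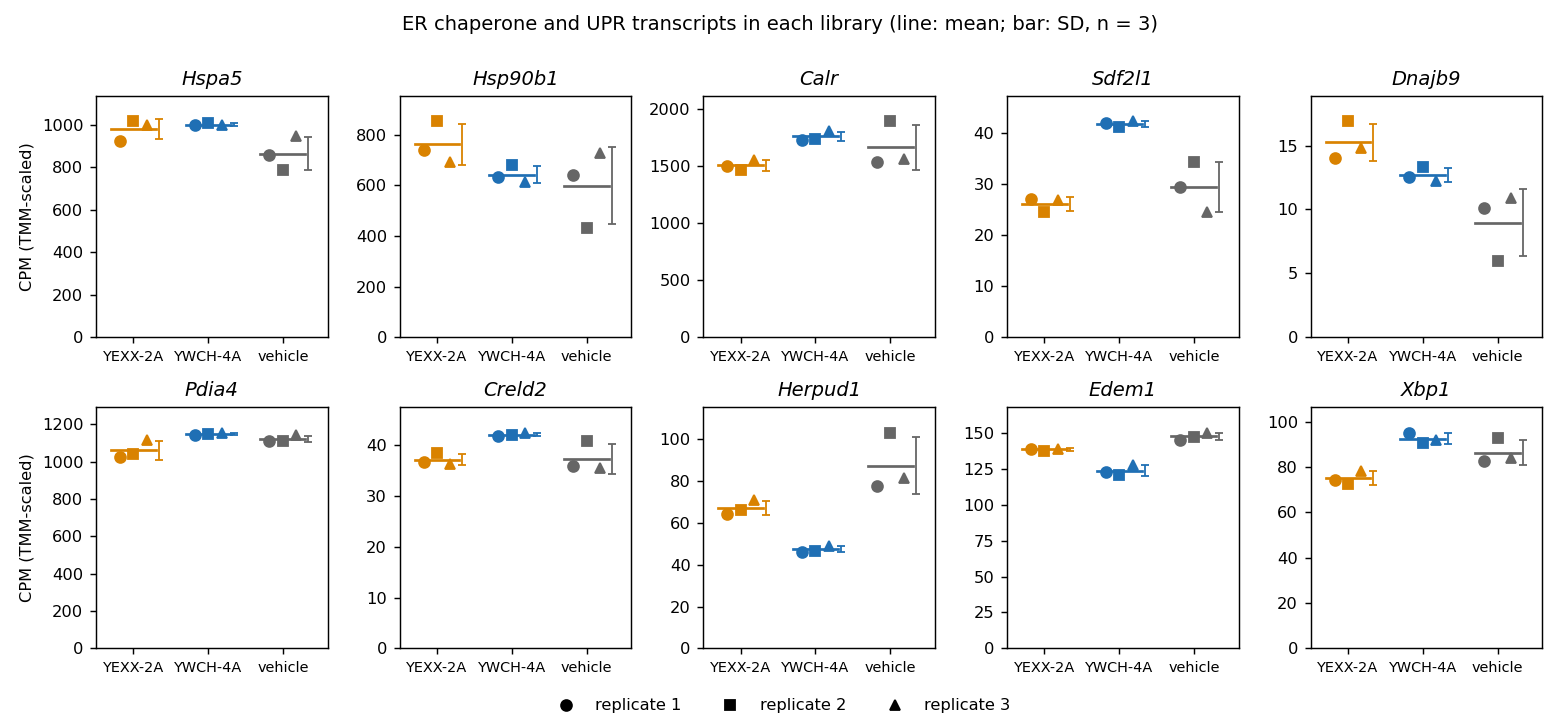
CPM (scaled library sizes) of the 10 genes in each library, 1 panel a gene with its own axis from 0, for YEXX-2A, YWCH-4A and vehicle. Points are libraries with the shape giving the replicate number, lines are means and bars are SD (n = 3). Herpud1 in YWCH-4A libraries lay between 46.3 and 48.9 CPM, under all others, and vehicle replicate 2 was the lowest library for Dnajb9, Hsp90b1 and Hspa5.

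Among the ERAD genes, Herpud1, whose protein sits in the ER membrane and helps assemble the complex that retrotranslocates misfolded proteins, was called with both compounds. It had 64.1, 66.3 and 70.9 CPM with YEXX-2A, 46.3, 46.6 and 48.9 CPM with YWCH-4A and 77.6, 103 and 81.4 CPM with vehicle (replicates 1 to 3). Every YWCH-4A library lay under every YEXX-2A library, and every YEXX-2A library under every vehicle library. With YEXX-2A it fell by 23.2% (log2 fold change -0.38, SE 0.10, 95% interval -0.60 to -0.16, edgeR adjusted p = 0.0198), and without vehicle replicate 2 the log2 fold change was -0.25 (adjusted p = 0.00445). That call was lost without YEXX-2A replicate 1 (adjusted p = 0.0721) or 2 (adjusted p = 0.0762). With YWCH-4A it fell by 45.9% (log2 fold change -0.89, SE 0.10, 95% interval -1.11 to -0.66, edgeR adjusted p = 8.67e-05). The YWCH-4A call was kept when each library was left out in turn, with log2 fold changes from -0.96 to -0.75 and adjusted p at most 0.00119. Herpud1 is the gene with ERSE-II and the ATF4 composite element in the stretch printed above. Whether these elements bear on its fall was not tested.

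Edem1, a mannosidase-like lectin that routes misfolded glycoproteins to ERAD, had 139, 137 and 139 CPM with YEXX-2A, 123, 120.5 and 128 CPM with YWCH-4A and 145, 147 and 150.0 CPM with vehicle. The 3 groups did not overlap, and the spread was small. With YWCH-4A it fell by 16.1%, a log2 fold change of -0.25 with SE 0.05 (edgeR adjusted p = 0.00498). Without vehicle replicate 2 the value was -0.26 (adjusted p = 0.000246). On the FPKM scale, where the median of all genes was shifted by 0.18 in this comparison, the change was -0.08 (limma adjusted p = 0.234), or -0.26 relative to that median. With YEXX-2A the log2 fold change was -0.09 (SE 0.05, 95% interval -0.21 to 0.03, edgeR adjusted p = 0.192).

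Sdf2l1 and Dnajb9 are partners of BiP. SDF2L1 keeps BiP working with its DNAJ co-chaperones in the lumen, and DNAJB9, also called ERdj4, is a J-domain protein that stimulates BiP and is a known XBP1 target. Sdf2l1 had 27.0, 24.6 and 26.9 CPM with YEXX-2A, 41.9, 41.1 and 42.3 CPM with YWCH-4A and 29.5, 34.4 and 24.5 CPM with vehicle. All YWCH-4A libraries were above all others, while YEXX-2A and vehicle overlapped. With YWCH-4A it rose 1.42-fold (log2 fold change 0.51, SE 0.11, 95% interval 0.26 to 0.75, edgeR adjusted p = 0.00612), and 0.63 on the log2 scale without vehicle replicate 2 (adjusted p = 1.09e-05). With YEXX-2A its log2 fold change was -0.17 (SE 0.11, 95% interval -0.42 to 0.08, edgeR adjusted p = 0.244). Without vehicle replicate 3 it was -0.29 (adjusted p = 0.0351), and without vehicle replicate 2 it was -0.05 (adjusted p = 0.686).

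Dnajb9 had 14.1, 16.9 and 14.8 CPM with YEXX-2A, 12.5, 13.3 and 12.3 CPM with YWCH-4A and 10.1, 5.94 and 10.9 CPM with vehicle. Both compounds' libraries were all above vehicle, whose replicate 2 was far under the other vehicle libraries. With YEXX-2A it rose 1.69-fold (log2 fold change 0.76, SE 0.18, 95% interval 0.35 to 1.17, edgeR adjusted p = 0.0149). The value was 0.54 without vehicle replicate 2 (adjusted p = 0.00198), and the call was lost without YEXX-2A replicate 2 (adjusted p = 0.0668). With YWCH-4A it was at 0.50 (SE 0.18, edgeR adjusted p = 0.0656), and at 0.28 without vehicle replicate 2 (adjusted p = 0.0676). Without vehicle replicate 3 the YWCH-4A value was 0.65 and called (edgeR adjusted p = 0.0293).

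Hspa5 encodes BiP, the chaperone that also keeps the sensors of the unfolded protein response silent. It had 924, 1015 and 998 CPM with YEXX-2A, 998, 1007 and 996 CPM with YWCH-4A and 858, 789 and 947 CPM with vehicle. The YWCH-4A libraries were all above vehicle and the YEXX-2A libraries overlapped it. The log2 fold change was 0.18 with YEXX-2A (SE 0.07, 95% interval 0.02 to 0.34, edgeR adjusted p = 0.0738), and 0.12 without vehicle replicate 2 (adjusted p = 0.0842). Without vehicle replicate 3 the YEXX-2A value was 0.25 and called (edgeR adjusted p = 0.0189). The log2 fold change was 0.21 with YWCH-4A (SE 0.07, 95% interval 0.05 to 0.37, edgeR adjusted p = 0.0503). The YWCH-4A value was called without vehicle replicate 2 (0.15, adjusted p = 0.0283) and by DESeq2, among other settings.

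Hsp90b1, which folds integrins and Toll-like receptors, had 740, 853 and 694 CPM with YEXX-2A, 634, 681 and 614 CPM with YWCH-4A and 640.3, 431 and 728 CPM with vehicle. Only vehicle replicate 2 lay under all compound libraries. The log2 fold change was 0.35 with YEXX-2A (SE 0.16, edgeR adjusted p = 0.1) and 0.16 without vehicle replicate 2 (adjusted p = 0.212). Without vehicle replicate 3 the YEXX-2A value was 0.51 and called (edgeR adjusted p = 0.0225). The YWCH-4A value was 0.10 (SE 0.16, edgeR adjusted p = 0.662), and -0.09 without vehicle replicate 2 (adjusted p = 0.48).

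The remaining folding genes moved little on this scale. Calr, which folds glycoproteins and binds ER calcium, had 1460.2 to 1551 CPM with YEXX-2A, 1727 to 1804 CPM with YWCH-4A and 1536 to 1887 CPM with vehicle, with vehicle replicate 2 the highest library. Its log2 fold change was -0.14 with YEXX-2A (95% interval -0.32 to 0.04, edgeR adjusted p = 0.174) and 0.08 with YWCH-4A (95% interval -0.10 to 0.26, edgeR adjusted p = 0.477). Without vehicle replicate 2 the YEXX-2A value was -0.04 (adjusted p = 0.5) and the YWCH-4A value 0.18 (adjusted p = 0.00311). Pdia4 had 1023 to 1117 CPM with YEXX-2A, 1139.9 to 1155 CPM with YWCH-4A and 1111 to 1141 CPM with vehicle. Its log2 fold changes of -0.08 and 0.03 with YEXX-2A and YWCH-4A had 95% intervals of -0.21 to 0.04 and -0.09 to 0.16, and on the FPKM scale the YEXX-2A value was 0.002. Creld2, a secreted ER stress protein of the disulfide-handling kind, had 36.4 to 38.4 CPM with YEXX-2A, 41.9 to 42.5 CPM with YWCH-4A and 35.5 to 40.8 CPM with vehicle. The YWCH-4A libraries were all above the others, with a log2 fold change of 0.17 (SE 0.08, edgeR adjusted p = 0.115), and 0.24 without vehicle replicate 2 (adjusted p = 0.00777).

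Xbp1, the mRNA that IRE1 splices, had 74.5, 72.5 and 78.3 CPM with YEXX-2A, 95.2, 90.6 and 92.1 CPM with YWCH-4A and 82.6, 92.8 and 83.9 CPM with vehicle. The YEXX-2A libraries were under all others, and YWCH-4A overlapped vehicle through vehicle replicate 2. With YEXX-2A the total transcript fell by 13.1% (log2 fold change -0.20, SE 0.07, edgeR adjusted p = 0.0409). This call rested on a narrow margin. It was lost without any 1 YEXX-2A or YWCH-4A library (adjusted p from 0.0512 to 0.146), and with 6 of the 9 other settings. With YWCH-4A the log2 fold change was 0.10 (SE 0.07, edgeR adjusted p = 0.289), and 0.15 without vehicle replicate 2 (adjusted p = 0.0311).

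**Figure D3:**
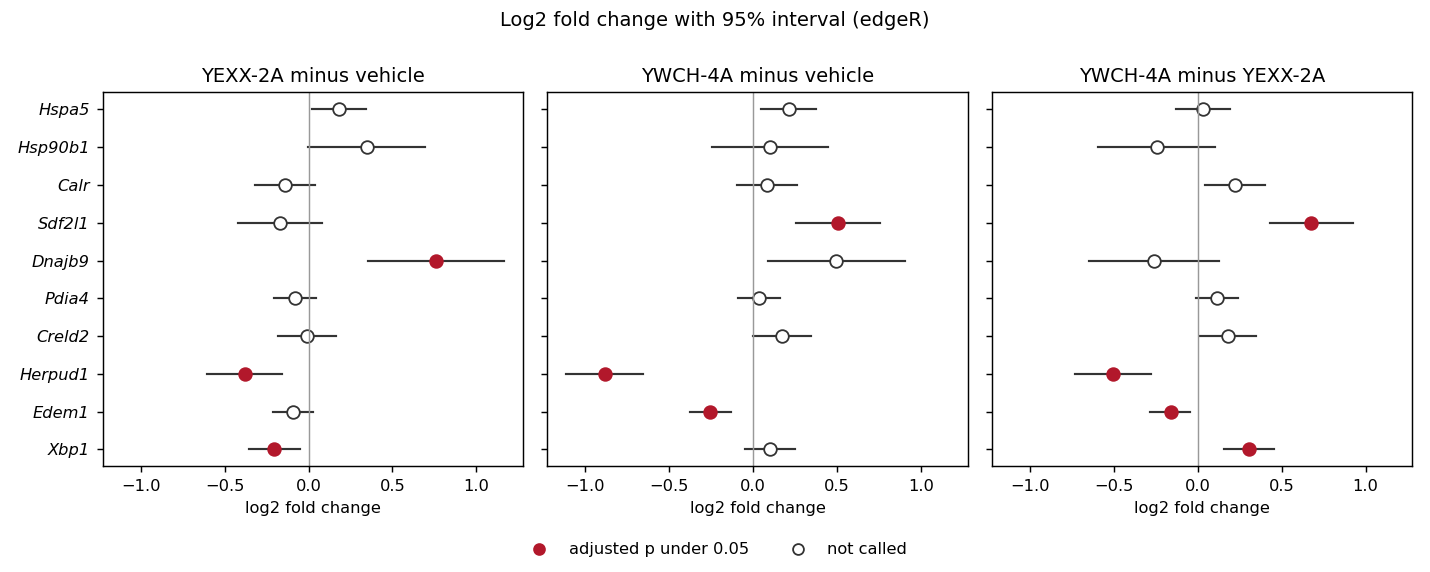
Log2 fold change (points) and 95% interval (lines) of the 10 genes for YEXX-2A minus vehicle, YWCH-4A minus vehicle and YWCH-4A minus YEXX-2A, from edgeR on 3 libraries a group. Filled points were called at an adjusted p under 0.05. Herpud1 was lower in all 3 comparisons (-0.38, -0.89 and -0.50), and Sdf2l1 was higher in those of YWCH-4A (0.51 and 0.68).

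The third comparison set YWCH-4A against YEXX-2A, which does not use the vehicle libraries' means. Sdf2l1 and Xbp1 were higher, and Herpud1 and Edem1 lower, with YWCH-4A, so 2 and 2 of 10 were called, beside 16.2% of all tested genes higher, 15.1% lower and 31.3% in either direction. All YWCH-4A libraries lay above all YEXX-2A libraries for 5 of the 10 genes and under them for 4, beside 29.9% and 29.1% of all genes. Sdf2l1 was 1.60-fold higher (log2 fold change 0.68, SE 0.11, edgeR adjusted p = 0.00116) and Xbp1 1.23-fold higher (0.30, SE 0.07, edgeR adjusted p = 0.00661). Herpud1 was lower by 0.50 on the log2 scale (-0.50, SE 0.10, edgeR adjusted p = 0.00398). These 3 calls were kept under all 18 other settings run. The Edem1 difference of -0.16 (edgeR adjusted p = 0.0428) was lost without any 1 library other than vehicle replicate 2 or 3, with adjusted p from 0.0582 to 0.164. For Hspa5 the difference was 0.03 with a 95% interval of -0.13 to 0.19 (edgeR adjusted p = 0.775). Calr was at 0.22 (95% interval 0.04 to 0.40, edgeR adjusted p = 0.0567), with YWCH-4A libraries all above YEXX-2A libraries. Since the vehicle group's wide spread enters the shared error, these p-values move with vehicle replicate 2. Without it, 5 of the 10 were higher and 4 lower, beside 25.4% and 26.1% of all genes, and Hspa5 alone was not called.

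A ratio of 2 genes within a library does not depend on how libraries were scaled. The log2 ratio of Herpud1 to Hspa5 CPM was -3.94 to -3.81 with YEXX-2A, -4.43 to -4.34 with YWCH-4A and -3.54 to -2.94 with vehicle, with no overlap between groups. The log2 ratio of Sdf2l1 to Hspa5 was -5.36 to -5.09 with YEXX-2A, -4.61 to -4.55 with YWCH-4A and -5.27 to -4.51 with vehicle, where the vehicle range overlapped that of both compounds. These ratios were formed after the single values had been seen and are given without a test.

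Other genes of the pathway were taken from lists by role. Their counts stand beside 17.6% of all tested genes called higher and 18.5% lower with YEXX-2A, and 15.7% higher and 14.9% lower with YWCH-4A, and their medians beside 0.01 and 0.03 over all tested genes. Of 16 tested chaperones and co-chaperones, 7 rose and 2 fell with YEXX-2A (median log2 fold change 0.13), and 4 rose and 1 fell with YWCH-4A (median 0.13, or 0.05 without vehicle replicate 2). With YEXX-2A the HSP70 family member Hspa13 was at 0.87 and Canx, the membrane-bound relative of calreticulin, at 0.57, while Cnpy3, which assists Toll-like receptor folding, was at -0.33 and Ppib, a prolyl isomerase of the collagen machinery, at -0.29. Without vehicle replicate 2 these were at 0.61, 0.37, -0.20 and -0.18. All 9 calls were lost without YEXX-2A replicate 1, and likewise without replicate 2. Over all genes, the 4145 YEXX-2A calls became 1459 without replicate 1 and 1044 without replicate 2. With YWCH-4A, Fkbp2, another prolyl isomerase, was at 0.39, Sdf2, the paralog of Sdf2l1, at 0.35 and Ppib at -0.31. Of these only the Sdf2 call was kept when each library was left out in turn.

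Among 16 tested disulfide enzymes, 4 rose and 3 fell with YEXX-2A (median 0.06), and 5 rose and 3 fell with YWCH-4A (median 0.07). These medians were 0.12 with YEXX-2A and -0.02 with YWCH-4A without vehicle replicate 2. The oxidases that recharge protein disulfide isomerases went in opposite directions. Ero1a fell with both compounds, at -0.38 with YEXX-2A (edgeR adjusted p = 0.00381) and -0.82 with YWCH-4A (edgeR adjusted p = 4.26e-06). Ero1b was at 0.57 with YEXX-2A (edgeR adjusted p = 0.0497), a call lost without any of 7 libraries, and at 1.53 with YWCH-4A (edgeR adjusted p = 0.000177), kept when each library was left out. Without vehicle replicate 2 its YEXX-2A value was 0.40 (edgeR adjusted p = 0.0898). Pdia5, another disulfide isomerase, fell with both, at -0.72 with YEXX-2A and -0.94 with YWCH-4A. The membrane thioredoxins Tmx4 and Tmx3 were at 1.32 and 0.85 with YEXX-2A, and at 1.06 and 0.63 without vehicle replicate 2. Tmx4 was at 0.70 with YWCH-4A, where it was 0.43 without vehicle replicate 2 and its call was lost without any 1 YWCH-4A library.

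Of 20 other tested ERAD genes, 6 rose and 1 fell with YEXX-2A (median -0.05, or 0.004 without vehicle replicate 2), and 5 rose and 2 fell with YWCH-4A (median 0.09). The lectin gene Erlec1 was at 0.74 and the ER ubiquitin ligase gene Rnf139 at 0.71 with YEXX-2A, and Ube2g2, a ubiquitin-conjugating enzyme of ERAD, at -0.33. Of these only the Rnf139 call was kept when each library was left out, and the others were lost without YEXX-2A replicate 2. With YWCH-4A, Sel1l, the scaffold of the HRD1 ligase, was at -0.31 (edgeR adjusted p = 0.00113), also when each library was left out. The signal peptide peptidase gene Hm13 was at -0.34, whose call ended when YWCH-4A replicate 2 was left out (adjusted p = 0.0516). Erlec1 (0.50) and Rnf139 (0.43) were called with YWCH-4A, and those calls were lost without 7 and 5 of the 9 libraries in turn. For Rnf139 the YWCH-4A value was 0.28 without vehicle replicate 2 (adjusted p = 0.0234).

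**Figure D4:**
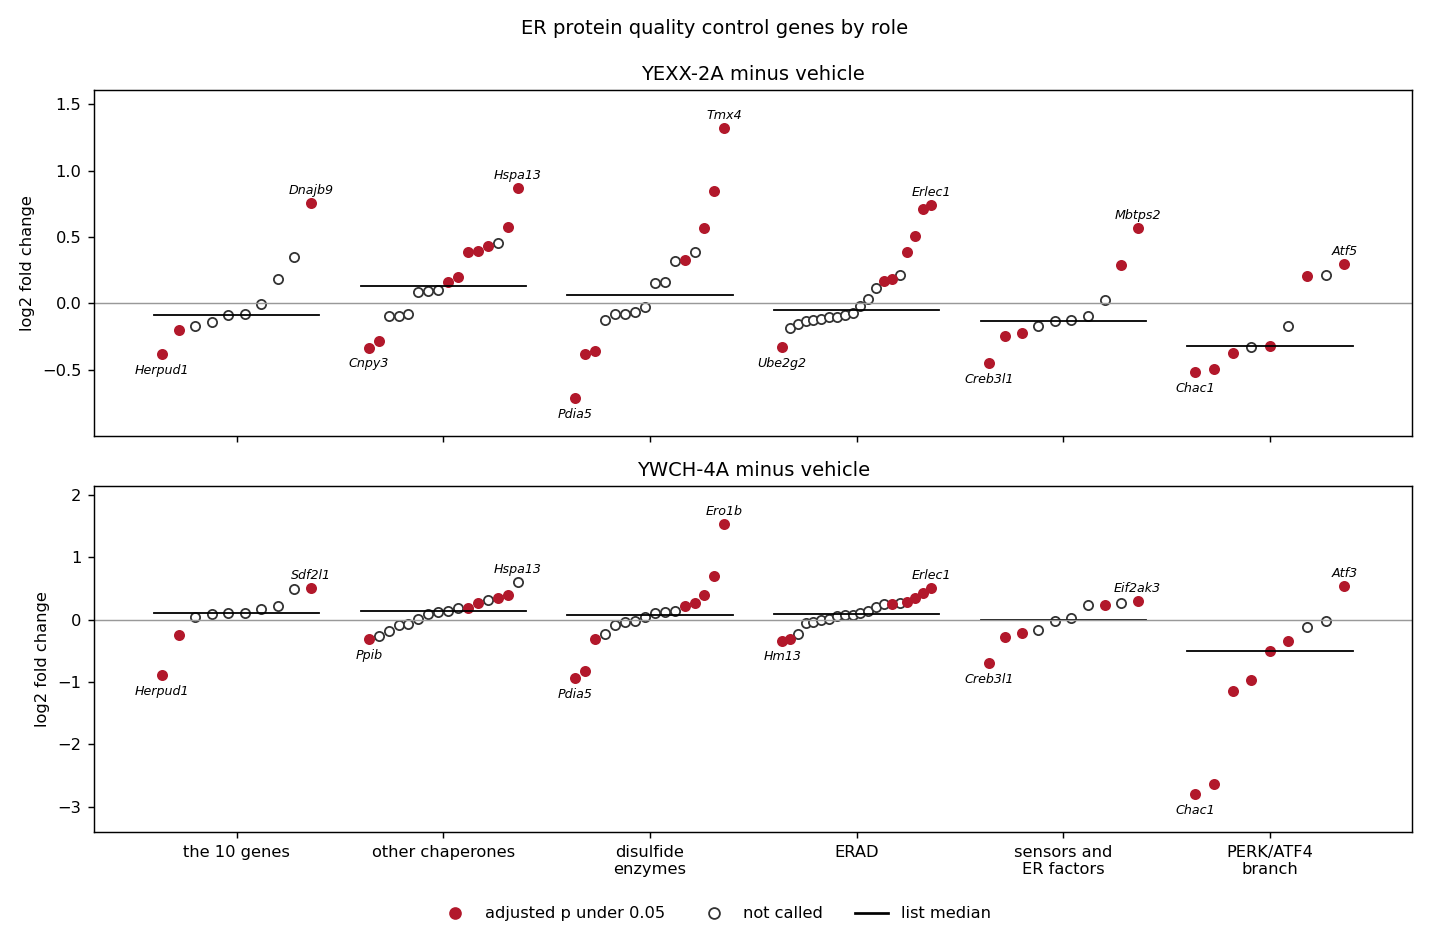
Log2 fold change of each tested gene by role, for YEXX-2A minus vehicle (top) and YWCH-4A minus vehicle (bottom, with a wider axis). Filled points were called at an adjusted p under 0.05 in edgeR, black lines are list medians, and the lowest and highest gene of each list are named. Medians of the folding, disulfide and ERAD lists lay between -0.05 and 0.13, and that of the PERK and ATF4 branch was -0.32 and -0.50.

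Of the sensors, Ern1 was at -0.13 with YEXX-2A (edgeR adjusted p = 0.146) and 0.23 with YWCH-4A (edgeR adjusted p = 0.0253). Eif2ak3 was at 0.03 with YEXX-2A (edgeR adjusted p = 0.835) and 0.30 with YWCH-4A (edgeR adjusted p = 0.0217). Atf6 was at 0.29 with YEXX-2A (edgeR adjusted p = 0.0458) and 0.02 with YWCH-4A (edgeR adjusted p = 0.895). Without vehicle replicate 2, Atf6 was at 0.17 with YEXX-2A and -0.10 with YWCH-4A, and the YEXX-2A values of Ern1 and Eif2ak3 were -0.08 and -0.04. The 3 calls were lost without 5, 2 and 7 of the 9 libraries in turn. Over the list of 10 sensors and related ER-anchored factors, 2 rose and 3 fell with each compound (medians -0.13 with YEXX-2A, or -0.05 without vehicle replicate 2, and -0.003 with YWCH-4A). Creb3l1, an ER-anchored factor of the ATF6 type that drives collagen genes, fell with both compounds, at -0.45 with YEXX-2A (edgeR adjusted p = 0.00439) and -0.70 with YWCH-4A (edgeR adjusted p = 6.98e-05), and both calls were kept when each library was left out. Its relative Creb3l2 was at -0.25 and the site-2 protease gene Mbtps2 at 0.57 with YEXX-2A, and the site-1 protease gene Mbtps1 at -0.28 with YWCH-4A, or -0.18 without vehicle replicate 2. These 3 calls were lost without 1 or more compound libraries.

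Of 9 tested genes of the PERK and ATF4 branch, 2 rose and 4 fell with YEXX-2A (median -0.32, or -0.22 without vehicle replicate 2), and 1 rose and 6 fell with YWCH-4A (median -0.50). Ddit3, which encodes the stress factor CHOP, fell with both, at -0.37 with YEXX-2A (edgeR adjusted p = 0.00856) and -0.50 with YWCH-4A (edgeR adjusted p = 0.000633). Atf4 was at -0.17 with YEXX-2A (edgeR adjusted p = 0.0843), or -0.09 without vehicle replicate 2, and at -1.15 with YWCH-4A (edgeR adjusted p = 8.03e-07). With YEXX-2A, Chac1 was at -0.52 and Trib3 at -0.50, or -0.32 for Trib3 without vehicle replicate 2. With the same compound, Atf5 was at 0.29 and Nupr1 at 0.21. Of these 4 calls only that of Chac1 was kept when each library was left out. With YWCH-4A, Atf5 was instead at -0.97 (edgeR adjusted p = 4.36e-05), a call kept when each library was left out. Nupr1 was at -0.11 with YWCH-4A (edgeR adjusted p = 0.254). Atf3 was the gene that rose with YWCH-4A (0.54, edgeR adjusted p = 0.0201), a call lost without any of 4 libraries, and Chac1 and Trib3 were at -2.80 and -2.64.

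Herpud1, called against vehicle with both compounds, was compared with all other genes of at least 1 CPM by the shape of its profile. The measure was the root mean square difference of log2 CPM, each gene centred on its own mean over the 9 libraries, among 10982 genes. The nearest were the filamin genes Flnc (0.04) and Flna (0.04) and the histone variant gene H2ax (0.04), while Herpud1's own profile had an SD of 0.40. Their log2 fold changes were -0.34, -0.37 and -0.35 with YEXX-2A and -0.84, -0.82 and -0.84 with YWCH-4A.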

How the data were processed

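RNA from 9 libraries (3 groups of 3) was sequenced as mRNA enriched with oligo(dT), per the labels' protocols. The submitters' processing notes name StringTie 1.3.1, RSEM, DESeq2 and edgeR, with no role given, and the aligner, build and annotation are not given in the sources used here. The authors deposited a table of estimated counts and FPKM for each gene in each library, named as count and fpkm in its header, and no normalization beyond FPKM is recorded. A deposited table of group values was not used. Estimated counts were rounded, filtered with filterByExpr (minimum count 10) and scaled by TMM, and compared by edgeR 4.0.16 (R 4.3.3) with its quasi-likelihood F test, robust form, in a fit of group means to the 9 libraries. P-values are two-sided and Benjamini-Hochberg adjusted over 11473 genes. Groups share 1 estimate of the spread although vehicle libraries varied more. SE is the log2 fold change over the square root of F. Alternatives used limma 3.58.1, DESeq2 1.42.0, other filters and scalings, a replicate block and each library left out. The test was also run on simulated counts with known changes, drawn with the same spread in all 3 groups. Those counts lack the wider scatter of the vehicle libraries, so that run cannot show how the test behaves with it. The 10 genes, the lists by role and the settings were chosen with earlier results of these data known. Named list genes are the largest called rises and falls (at most 2 each a list and comparison, mean at least 1 CPM). Ern1, Eif2ak3, Atf6, Atf4 and Ddit3 were always named, and Atf5 and Nupr1 are given with both compounds. The genes most alike are given for members called in both comparisons with vehicle. Promoter motifs were searched after the values had been seen. Reads of overlapping antisense genes are not separable here.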

Additional observations from a re-analysis of the deposited data

How the results depend on the processing

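Each of the 10 log2 fold changes was recomputed under 18 settings, 180 values a comparison. With YEXX-2A against vehicle 152 kept direction and side of the threshold, 16 lost a call, 5 gained one and 7 turned sign. With YWCH-4A against vehicle these numbers were 155, 2, 22 and 1, and between the compounds 148, 11, 20 and 1. The turned values were all of genes that were not called. With YEXX-2A, Pdia4 was at 0.002 and Creld2 at 0.076 with limma on log2(FPKM + 1), and at 0.002 and 0.078 with a pseudocount of 0.1. With a library left out Creld2 ran from -0.043 to 0.060, and was at 0.060 without vehicle replicate 2, 0.003 without YEXX-2A replicate 1 and 0.007 without YEXX-2A replicate 3. With YWCH-4A, Hsp90b1 ran from -0.089 without vehicle replicate 2 to 0.262, and between the compounds Hspa5 ran from -0.010 without YEXX-2A replicate 1 to 0.058.

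Counts of the 10 genes called moved more. They are to be read beside the counts over all genes, which moved too and follow in the next paragraph. With YEXX-2A, limma on FPKM gave 2 higher and 1 lower at either pseudocount. The lower count was 1 with no filter, with limma-voom and with the replicate block, and 0 with only the 2 groups compared. Leaving out a library gave 0 (YEXX-2A replicate 2) to 3 (vehicle replicate 3) higher and 0 (YEXX-2A replicate 1 or 2) to 3 lower, and 1 lower without YEXX-2A replicate 3 or any YWCH-4A library. With YWCH-4A the higher count was 2 with the stricter filter (1 CPM in 6 libraries) and with limma-voom, 3 with DESeq2 and 7 with limma on FPKM at either pseudocount, where the lower count was 1. Leaving out a library gave 1 to 5 higher, with 5 without vehicle replicate 2 and 3 without vehicle replicate 3, and 2 lower throughout. Between the compounds, limma-voom, limma on FPKM at either pseudocount and the fit with only the 2 groups compared each gave 5 higher. The lower count was 1 with no filter, limma on FPKM and the replicate block, and 4 with only the 2 groups. Leaving out a library gave 2 to 5 higher and 1 to 4 lower, with 5 and 4 without vehicle replicate 2, and 1 lower without any other library but vehicle replicate 3. FPKM values carry no TMM scaling, and on them the median of all genes was 0.07, 0.18 and 0.08 in the 3 comparisons, with 62.0%, 78.1% and 72.6% of calls higher, against 48.8%, 51.2% and 51.7% here.

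Over all genes, the YEXX-2A count of 4145 became 1408 with only the 2 groups and 1931 with the replicate block, and 1044 to 5308 with a library left out. The lowest, 1044, was without YEXX-2A replicate 2, and without replicate 1 it was 1459. With no filter the YEXX-2A count was 3803, with limma-voom 2922 and with limma on log2(FPKM + 1) 3722. The YWCH-4A count of 3516 ran from 2450 to 4588 with a library left out. It was 3379 with the stricter filter, 2925 with limma-voom, 3654 with DESeq2 and 4700 with limma on log2(FPKM + 1). Between the compounds 3593 became 5994 with limma-voom, 5903 with only the 2 groups, 3478 with no filter and 4112 with limma on log2(FPKM + 1). With a library left out it ran from 2225 to 6001. The value of 6001 was without vehicle replicate 2, and 2225 was without YEXX-2A replicate 2. It was 2288 without YWCH-4A replicate 1 and 2293 without YWCH-4A replicate 3. No sign was seen that replicate numbers paired the libraries, though groups of 3 libraries cannot exclude it. Deviations from group means of same-numbered libraries correlated between -0.265 and 0.081, and 0 of 9 libraries correlated best with their own number. The cause of these shifts was not tested. Depth limits Dnajb9 most, with 75 counts in its lowest library.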

Other observations

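Genes outside the 10 that hold an exact ERSE or ERSE-II in the same promoter window were looked up after the values had been seen, and are given without a test. ERSE stood in the promoters of 16 such gene symbols, 10 of which were tested. Of these, 5 rose and 2 fell with YEXX-2A (median log2 fold change 0.28, or 0.19 without vehicle replicate 2), beside 17.6% and 18.5% of all tested genes. With YWCH-4A 2 rose and 2 fell (median 0.08, or -0.02 without vehicle replicate 2), beside 15.7% and 14.9% of all tested genes. Canx was at 0.57 with YEXX-2A and 0.19 with YWCH-4A, or 0.37 and -0.02 without vehicle replicate 2. Dnajc3, a BiP co-chaperone that also restrains PERK, was at 0.40 with YEXX-2A and 0.13 with YWCH-4A, or 0.23 and -0.03 without vehicle replicate 2, and its YEXX-2A call was lost without 7 of the 9 libraries in turn. The AN1-type zinc finger gene Zfand2a was at -0.28 with YEXX-2A and -0.32 with YWCH-4A, or -0.27 and -0.31 without vehicle replicate 2. The oxidase gene Ero1b, described above, is another of the 10 tested. Ppm1l was called with both, at 0.31 with YEXX-2A and -0.46 with YWCH-4A, or 0.19 and -0.57 without vehicle replicate 2. The other called genes were Hnrnpa3 (0.44) and Pan2 (-0.31) with YEXX-2A and Birc5 (0.34) with YWCH-4A. Without vehicle replicate 2 these values were 0.28, -0.27 and 0.31.

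ERSE-II stood in 16 symbols besides Herpud1, with 7 tested. Of these 1 rose (Cdc27, 0.88) and 1 fell (Cdc45, -0.23) with YEXX-2A, beside 17.6% and 18.5% of all tested genes. With YWCH-4A 0 rose and 0 fell, beside 15.7% and 14.9% of all tested genes. Without vehicle replicate 2 those YWCH-4A counts were 2 and 1, beside 20.3% and 19.1%. The chaperone gene Hyou1, not called with either compound, was at -0.10 with YEXX-2A and -0.26 with YWCH-4A, or 0.02 and -0.14 without vehicle replicate 2. Nucb1 was at -0.12 with YEXX-2A and 0.16 with YWCH-4A, or -0.04 and 0.25 without that library. The co-chaperone gene Dnajb11 was at 0.09 with each compound. The ATF4 composite element stood in 1140 symbols besides Herpud1, with 179 tested. Of these 30 rose and 33 fell with YWCH-4A, beside 15.7% and 14.9% of all tested genes, so these counts are near the background. Their median with YWCH-4A was -0.02, beside 0.03 over all tested genes. With YEXX-2A 25 rose and 30 fell, beside 17.6% and 18.5%. Between the compounds, 28 were higher and 46 lower with YWCH-4A, beside 16.2% and 15.1%, so the lower count stood above that share. Whether ATF4 had a part in these counts was not tested.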
